A study of Mus musculus with 12 samples.

Results

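The 9 genes described here were grouped as markers of bile duct epithelium and liver progenitor cells, though some are known from other cells as well. The 9 are *Sox9*, *Epcam*, *Krt7*, *Krt19*, *Krt23*, *Prom1*, *Spp1*, *Cd24a* and *Ly6d*. They were taken by gene symbol from a table of 47069 genes measured by RNA-seq in 12 mouse libraries, and each symbol was found. Levels are in FPKM, fragments mapped per kilobase of transcript, scaled to the depth of the library, a unit corrected for transcript length, so levels can be set side by side between genes. All 9 had a mean of at least 0.1 FPKM over the 12 libraries, as did 17386 genes in all, which were the genes tested.

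The study compared *Cdk1* Liv-/- mice with wild-type (WT) mice at postnatal day 14 (P14), a time of liver growth. CDK1 is the kinase that drives cells into mitosis. *Cdk1* Liv-/- mice carried floxed *Cdk1* alleles together with Albumin-Cre, in which the albumin promoter drives Cre recombinase in hepatocytes and their fetal precursors. The control was labelled only as wild type, and whether it carried the floxed alleles or Cre was not given. All mice were kept on a standard diet in specific pathogen-free housing. RNA came either from isolated hepatocytes or from whole liver, with 3 libraries for each genotype in each compartment, 4 groups in all. Which libraries came from the same mouse was not given, so p-values measure the spread between these libraries.

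Bile ducts are lined by cholangiocytes, which share an ancestor with hepatocytes in the hepatoblast of the fetal liver. Cholangiocytes hold the keratins KRT7 and KRT19, the adhesion protein EPCAM and the transcription factor SOX9, and mature hepatocytes hold little of these. In injured liver, cells with such markers can expand around the portal tracts, and hepatocytes can also switch on some of them, *Sox9* and *Spp1* among these. Neither route can be read from bulk RNA: more or fewer cells of a type and more or less RNA per cell cannot be told apart.

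The libraries were checked first. *Cdk1* itself was 25.5 ± 4.41 FPKM in WT hepatocytes and 9.45 ± 2.47 in *Cdk1* Liv-/- hepatocytes (mean ± SD, n = 3), and 23.2 ± 1.96 against 12.6 ± 1.35 in whole liver, with no overlap between genotypes in either compartment. *Alb*, the albumin gene of hepatocytes, lay at a mean of 42220 to 62180 FPKM in the 4 groups. In *Cdk1* Liv-/- whole liver replicate 3, *Xist*, the RNA of the inactive X chromosome, stood at 158.32 FPKM and 4 genes of the Y chromosome (*Kdm5d*, *Uty*, *Ddx3y*, *Eif2s3y*) at 0, whereas *Xist* was at most 0.14 in the other 11 libraries, although the study states that male mice were used. WT hepatocyte replicate 3 held more RNA of other cell types than the other WT hepatocyte libraries: the summed level of 11 erythroid genes was 585.8 FPKM there against 148.8 and 109.8, and that of 11 sinusoidal endothelial genes was 357.3 against 188.0 and 129.0. Values without these libraries are given beside the results that they turn or move by more than 1.5-fold.

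In isolated hepatocytes, *Ly6d*, *Spp1*, *Cd24a* and *Sox9* rose in *Cdk1* Liv-/- mice. Between the group means *Ly6d* differed 192-fold, *Spp1* 4.61-fold, *Sox9* 3.81-fold and *Cd24a* 3.14-fold, or 5.73-fold for *Cd24a* without WT hepatocyte replicate 3. Without any other single library of that comparison, *Cd24a* no longer passed the threshold given below. In whole liver the same 4 genes rose again and *Epcam* passed the threshold as well, but not when most single libraries were left out. The stem cell marker *Prom1* and the keratin *Krt23* were nearly level across all 4 groups, although they were among the 3 most abundant of the 9 in both WT groups.

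A gene was called when limma gave a Benjamini-Hochberg adjusted p of at most 0.1 over all tested genes and a log2 change of at least 1 in size, on the scale of log2(FPKM + 0.5). By this rule 4 of the 9 were called higher in *Cdk1* Liv-/- hepatocytes, where 4.20% of all tested genes were called higher and 6.37% were called in either direction. In whole liver 5 of the 9 were called higher, against 4.59% higher and 5.59% in either direction. None of the 9 was called lower in either compartment. The 3 libraries of each genotype did not overlap for 7 of the 9 genes in hepatocytes, where 20.6% of all tested genes were higher without overlap, and for 6 of the 9 in whole liver, where 43.2% were. The median log2 change of the 9 was 0.72 in hepatocytes and 1.26 in whole liver, beside 0.05 and 0.18 over all tested genes, a background that median-ratio scaling brought to 0.00 and 0.01.

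**Figure D1:**
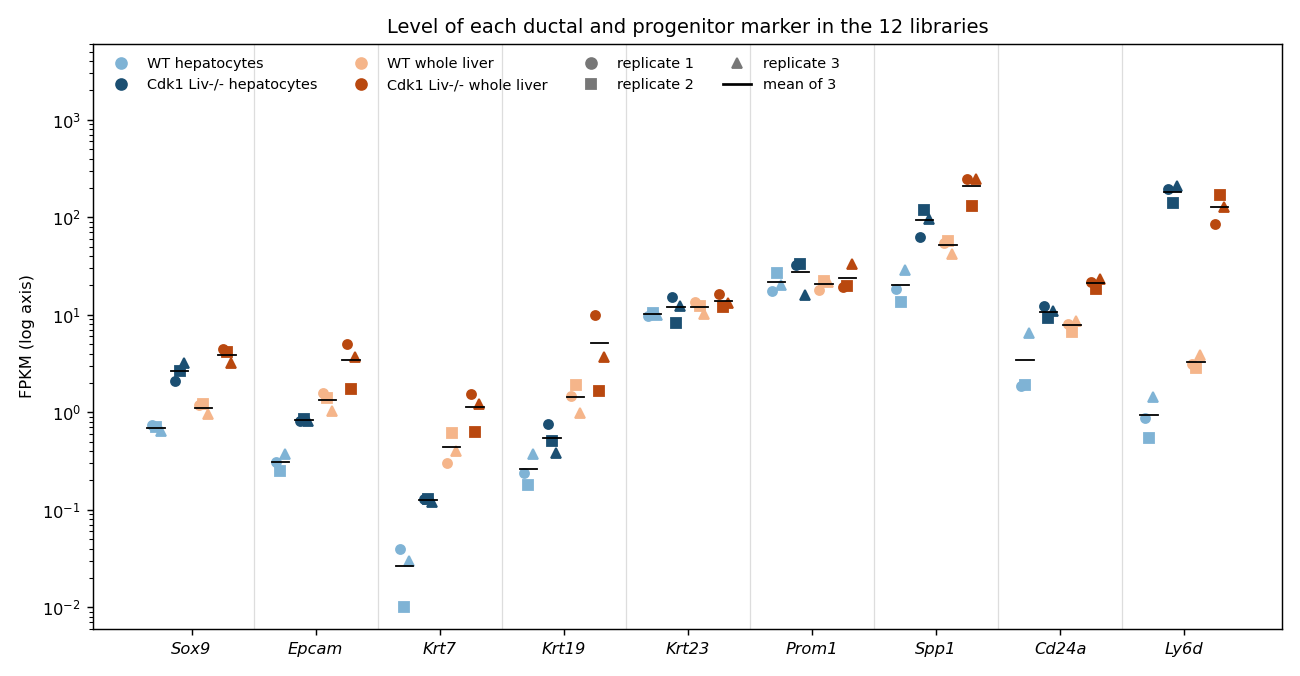
Level of each of the 9 genes in every library, in FPKM on a log axis, with 1 point per library, the shape giving the replicate number and the bar the mean of 3. *Ly6d* in both *Cdk1* Liv-/- groups (86.27 to 208.28 FPKM) lies far above both WT groups (0.54 to 3.89), while *Krt23* and *Prom1* keep to 8.15 to 33.36 FPKM in all 12 libraries.

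SOX9 is the transcription factor that marks the fetal ductal plate and, later, cholangiocytes and periportal progenitor-like hepatocytes. *Sox9* (ENSMUSG00000000567, chr11:112782224-112787760, plus strand, mm10) was measured at 0.74, 0.70 and 0.64 FPKM in the 3 WT hepatocyte libraries and at 2.11, 2.63 and 3.18 in the *Cdk1* Liv-/- hepatocyte libraries. In whole liver it was 1.2, 1.21 and 0.95 in WT and 4.42, 4.12 and 3.18 in *Cdk1* Liv-/-. Every *Cdk1* Liv-/- library was above every WT library, including across compartments. The log2 change was 1.38 (SE 0.17, adjusted p = 0.00694 by limma) in hepatocytes and 1.44 (SE 0.14, adjusted p = 0.00222) in whole liver, so the size of the rise was close in both: the difference of the changes was -0.05 (SE 0.22, adjusted p = 0.912). Ordered by mean, the groups ran from WT hepatocytes at 0.693 over WT whole liver at 1.12 and *Cdk1* Liv-/- hepatocytes at 2.64 to *Cdk1* Liv-/- whole liver at 3.91, and only the last pair touched, at 3.18 FPKM.

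*Epcam*, *Krt7* and *Krt19* code for an adhesion protein and a pair of keratins that serve as the classical cholangiocyte markers. They were the scarcest of the 9 in isolated hepatocytes and, unlike *Sox9*, differed more between compartments than between genotypes by the ratio of means. *Epcam* (ENSMUSG00000045394, chr17:87635979-87651129, plus strand) was 0.31, 0.25 and 0.37 FPKM in WT hepatocytes, 0.82, 0.86 and 0.82 in *Cdk1* Liv-/- hepatocytes, 1.56, 1.40 and 1.04 in WT whole liver and 4.99, 1.74 and 3.66 in *Cdk1* Liv-/- whole liver. The 4 groups did not overlap at any step of that order. In hepatocytes the genotype difference had an adjusted p of 0.0145 but a log2 size of 0.72 (SE 0.11), below the fold threshold, although the ratio of the means was 2.69. In whole liver it was 1.03 (SE 0.34, adjusted p = 0.0622), just past the fold threshold. That call was lost without any 1 of 5 libraries, all but *Cdk1* Liv-/- whole liver replicate 2, with adjusted p values from 0.122 to 0.161.

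*Krt19* (ENSMUSG00000020911, chr11:100140810-100148665, minus strand) was 0.24, 0.18 and 0.37 FPKM in WT hepatocytes and 0.76, 0.51 and 0.38 in *Cdk1* Liv-/- hepatocytes, a log2 difference of 0.45 (SE 0.17, adjusted p = 0.151). In whole liver it was 1.47, 1.89 and 0.99 in WT and 10.04, 1.66 and 3.71 in *Cdk1* Liv-/-. The *Cdk1* Liv-/- whole liver libraries thus spanned 6.05-fold and reached below the highest WT library. The log2 difference of 1.26 (SE 0.57) had an adjusted p of 0.140, and *Krt19* was not called. Without *Cdk1* Liv-/- whole liver replicate 2, the lowest, it was 1.80 with an adjusted p of 0.0418, and without replicate 1, the highest, it was 0.66 with an adjusted p of 0.218 and the ratio of the means went from 3.54 to 1.85.

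*Krt7* (ENSMUSG00000023039, chr15:101411043-101430313, plus strand) was the lowest of all, at 0.04, 0.01 and 0.03 FPKM in WT hepatocytes and 0.13, 0.13 and 0.12 in *Cdk1* Liv-/- hepatocytes. An estimate of depth from the steps of low values puts the WT hepatocyte values at 1.56 to 8.04 reads per library and the *Cdk1* Liv-/- hepatocyte values at 16.7 to 21.2 reads. The groups did not overlap, and the ratio of the means was 4.75, but on the log2(FPKM + 0.5) scale, which compresses such low values, the difference was 0.25 (SE 0.07, adjusted p = 0.0723). In whole liver *Krt7* was 0.30, 0.61 and 0.40 in WT and 1.53, 0.63 and 1.23 in *Cdk1* Liv-/-, with 0.61 in WT and 0.63 in *Cdk1* Liv-/- side by side. The log2 difference was 0.77 (SE 0.25, adjusted p = 0.0574), and with a pseudocount of 0.1 FPKM in place of 0.5 it was 1.16, past the fold threshold.

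Within *Cdk1* Liv-/- whole liver, these 3 genes had the same order over the libraries. *Epcam*, *Krt7* and *Krt19* were each highest in replicate 1, lower in replicate 3 and lowest in replicate 2, and so was *Krt23*. *Spp1* was likewise lowest in replicate 2, whereas *Ly6d* was highest there, at 171.01 FPKM. The summed level of 10 neutrophil genes was 89.4, 318.7 and 258.3 FPKM in replicates 1, 2 and 3, lowest where the duct keratins were highest. With 3 libraries this is a description of their order alone.

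*Krt23*, a type I keratin, and *Prom1*, which codes for the membrane protein CD133 used to mark stem cells, had levels that hardly moved. *Krt23* (ENSMUSG00000006777, chr11:99477974-99493137, minus strand) was 9.79, 10.53 and 9.96 FPKM in WT hepatocytes, 15.26, 8.15 and 12.41 in *Cdk1* Liv-/- hepatocytes, 13.49, 12.19 and 10.21 in WT whole liver and 16.31, 12.10 and 13.17 in *Cdk1* Liv-/- whole liver. No neighbouring pair of groups in the order of means was separated beyond its spread. The genotype difference was 0.19 (SE 0.22, adjusted p = 0.609) in hepatocytes and 0.20 (SE 0.14, adjusted p = 0.317) in whole liver. By the ratio of mean FPKM, *Krt23* was 38.3-fold above *Krt19* in WT hepatocytes and 21.7-fold above it in *Cdk1* Liv-/- hepatocytes. In whole liver the same ratio was 8.25 in WT and 2.70 in *Cdk1* Liv-/-.

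*Prom1* (ENSMUSG00000029086, chr5:43993620-44102032, minus strand) was 17.53, 26.71 and 20.38 FPKM in WT hepatocytes and 32.52, 33.36 and 16.03 in *Cdk1* Liv-/- hepatocytes. Whole liver held 18.12, 22.15 and 21.64 in WT and 19.30, 19.73 and 33.10 in *Cdk1* Liv-/-. In each *Cdk1* Liv-/- group 1 library stood apart from the other two, replicate 3 low in hepatocytes and replicate 3 high in whole liver. The genotype difference was 0.28 (SE 0.31, adjusted p = 0.589) in hepatocytes and 0.18 (SE 0.22, adjusted p = 0.568) in whole liver, where it was -0.07 without replicate 3 of *Cdk1* Liv-/-, the library with high *Xist*. *Krt23* and *Prom1* had the smallest spread of the 9 over the 12 libraries, with an SD of 0.28 and 0.37 on the log2 scale against 0.67 or more for each of the others.

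*Spp1* codes for osteopontin, a secreted matrix protein made by cholangiocytes and also by activated macrophages. *Spp1* (ENSMUSG00000029304, chr5:104435118-104441050, plus strand) was 18.27, 13.46 and 28.68 FPKM in WT hepatocytes and 62.96, 119.92 and 95.63 in *Cdk1* Liv-/- hepatocytes. Whole liver held 54.89, 57.08 and 42.45 FPKM in WT and 249.20, 130.40 and 247.50 in *Cdk1* Liv-/-. Every *Cdk1* Liv-/- library was above every WT library. The log2 change was 2.20 (SE 0.33, adjusted p = 0.0132) in hepatocytes and 1.96 (SE 0.28, adjusted p = 0.00615) in whole liver, and the changes differed by 0.23 (SE 0.46, adjusted p = 0.809). WT whole liver and *Cdk1* Liv-/- hepatocytes were neighbours in the order of means, at 51.5 and 92.8 FPKM, and did not overlap. *Spp1* was the most abundant of the 9 in both whole liver groups.

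Since macrophages can also make *Spp1*, genes of *Spp1*-positive macrophages were followed beside it. Of 8 such genes, 5 were called higher and 1 lower in *Cdk1* Liv-/- whole liver (none lower without WT whole liver replicate 3), and 3 higher and 1 lower in *Cdk1* Liv-/- hepatocytes. Of all tested genes, 4.59% were called higher and 5.59% in either direction in whole liver, and 4.20% higher and 2.17% lower in hepatocytes. In whole liver the matrix metalloproteinase *Mmp12* rose by 3.01 on the log2 scale, from 0.150 ± 0.026 to 5.73 ± 4.76 FPKM, and *Gpnmb*, a lysosomal membrane protein of such cells, rose by 2.51. The most abundant of the 8, *Fabp5*, fell by 1.71 in *Cdk1* Liv-/- hepatocytes. The summed level of the 8 genes lay between 267.7 and 306.3 FPKM in *Cdk1* Liv-/- hepatocytes and between 496.0 and 646.5 in WT hepatocytes, and in whole liver the genotypes overlapped, at 405.2 to 680.3 in *Cdk1* Liv-/- and 479.4 to 692.1 in WT. Most of this sum came from *Fabp5* (means of 334 FPKM in WT and 103 in *Cdk1* Liv-/- hepatocytes) and *Lpl* (217 and 125). It therefore says little of the scarcer members, of which *Gpnmb*, *Cd9* and *Mmp12* were the 3 called higher in hepatocytes. *Lpl* was also 200 FPKM in WT whole liver, close to its level in WT hepatocytes. The general Kupffer cell and macrophage list of 12 genes was 0.43 times the WT sum in *Cdk1* Liv-/- hepatocytes (0.63 times without WT hepatocyte replicate 3) and 1.35 times in whole liver, with none of the 12 at 0 in any group. Their part in the *Spp1* result was not tested.

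RefSeq promoter windows on GRCm38.p6, the build called mm10, were at hand for 5 of the 9 genes. The windows of *Spp1* and *Epcam*, both called between genotypes, are shown as the 250 bases before the start. For *Spp1* this is the first of 2 windows, and the second, at chr5:104435942-104436191, overlaps an exon of *Gm42793* and is not shown. The printed windows overlap no annotated exon. The *Spp1* window is chr5:104434861-104435110 and the *Epcam* window is chr17:87635729-87635978, both on the plus strand and read 5′ to 3′. Capitals mark a match, on either strand, to any of 7 motifs: GGAATG (TEAD), TGGGAA (RBPJ, the Notch effector), TGANTCA (AP-1), TTCCNGGAA (STAT), ACAATG (SOX), GTTAAT (HNF1) and the NF-kappaB motif.
Spp1: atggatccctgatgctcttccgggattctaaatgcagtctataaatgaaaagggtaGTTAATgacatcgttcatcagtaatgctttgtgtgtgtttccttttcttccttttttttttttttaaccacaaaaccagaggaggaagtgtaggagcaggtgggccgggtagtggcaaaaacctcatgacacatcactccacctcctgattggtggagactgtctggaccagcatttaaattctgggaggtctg
Epcam: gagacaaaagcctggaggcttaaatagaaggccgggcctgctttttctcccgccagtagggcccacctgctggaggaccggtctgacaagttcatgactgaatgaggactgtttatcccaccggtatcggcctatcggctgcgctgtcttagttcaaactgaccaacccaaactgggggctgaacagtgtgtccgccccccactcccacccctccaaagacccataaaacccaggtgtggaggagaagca
The *Spp1* window held GTTAAT, its first base at position -194 from the start, a word found in 6.43% of 32851 promoter windows of that length. The *Epcam* window held none of the 7. The RBPJ word was in 21.6% of all windows, TEAD in 12.6%, SOX in 10.7%, AP-1 in 6.75%, STAT in 0.913% and NF-kappaB in 0.356%. A match of letters is no measure of binding. The second *Spp1* window and the window of *Krt7* held none. Of the genes not called between genotypes, *Krt23* held the NF-kappaB word at -53 and the SOX word at -90, and *Prom1* held the RBPJ word at -116 and the AP-1 word at -88 in 1 window and the AP-1 word at -189 in another.

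*Cd24a* codes for the small surface glycoprotein CD24, found on cholangiocytes and progenitor cells and also on B cells, neutrophils and red cell precursors. *Cd24a* (ENSMUSG00000047139, chr10:43578284-43584265, plus strand) was 1.86, 1.91 and 6.57 FPKM in WT hepatocytes and 12.22, 9.35 and 10.85 in *Cdk1* Liv-/- hepatocytes. Whole liver held 8.11, 6.62 and 8.69 in WT and 21.73, 18.27 and 23.52 in *Cdk1* Liv-/-. The genotypes did not overlap in either compartment. In whole liver the log2 change of 1.38 (SE 0.13, adjusted p = 0.0022) was called under each of 18 alternative settings and left-out libraries. In hepatocytes it was 1.72 (SE 0.44, adjusted p = 0.0589).

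The WT hepatocyte library with *Cd24a* at 6.57 FPKM was replicate 3, the one with more RNA of other cell types. Without it the *Cd24a* difference in hepatocytes was wider, at 2.24 on the log2 scale with an adjusted p of 0.00615, and without any other single library of that comparison the adjusted p lay between 0.123 and 0.159, past the limit of 0.1. Summed levels of 12 B cell genes were 2.45 to 2.78 FPKM in *Cdk1* Liv-/- hepatocytes and 2.70 to 9.75 in WT hepatocytes, those of 11 erythroid genes 25.13 to 100.9 against 109.8 to 585.8, and those of 10 neutrophil genes 9.84 to 20.99 against 12.09 to 50.99. Without WT replicate 3 the *Cdk1* Liv-/- mean was 0.69 times the WT mean for B cell genes and 0.51 times for erythroid genes, but 1.28 times for neutrophil genes, which was 0.66 times with all libraries. In whole liver the neutrophil sum was 3.48 times the WT sum, while the B cell sum was 0.71 times and the erythroid sum 0.97 times (1.25 times without WT whole liver replicate 3 and 1.07 times without *Cdk1* Liv-/- whole liver replicate 1). The part of neutrophils in the whole liver value was not tested.

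*Ly6d* belongs to the Ly6 family of small proteins held on the cell surface by a lipid anchor. It is best known from stratified epithelium and from a stage of B cell precursors, and it has been used to mark a progenitor state in other epithelia. *Ly6d* (ENSMUSG00000034634, chr15:74762056-74763620, minus strand) was 0.87, 0.54 and 1.42 FPKM in WT hepatocytes and 193.10, 140.76 and 208.28 in *Cdk1* Liv-/- hepatocytes. In whole liver it was 3.12, 2.86 and 3.89 in WT and 86.27, 171.01 and 126.67 in *Cdk1* Liv-/-. It went from at most 1.42 FPKM in WT hepatocytes to the most abundant of the 9 in *Cdk1* Liv-/- hepatocytes, with a mean of 180.7 ± 35.4 FPKM. By the estimate of depth, the WT hepatocyte values stood for 14 to 44.9 reads per library and the *Cdk1* Liv-/- hepatocyte values for 3714 to 5245.

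The log2 change of *Ly6d* was 6.998 (SE 0.26, adjusted p = 0.000408 by limma) in hepatocytes and 5.04 (SE 0.26, adjusted p = 0.000318) in whole liver. With all libraries only *Ly6d* among the 9 passed the test of a difference between the compartments: its hepatocyte change was larger by 1.96 (SE 0.38, adjusted p = 0.0406), a test that 9.85% of all genes passed in either direction and 2.35% with a larger change in hepatocytes. Without WT whole liver replicate 1 that difference was 1.99 with an adjusted p of 0.110, a setting in which 78 of all tested genes passed, against 1712 with all libraries and 78 to 2639 over the 12 left-out libraries. *Cd24a* had a difference of 0.33 (SE 0.49, adjusted p = 0.731), which without WT hepatocyte replicate 3 was 0.85 with an adjusted p of 0.0717 and passed too, where 918 of all tested genes did. The *Ly6d* result came with a difference between the WT compartments, whole liver being 3.49-fold above hepatocytes. For *Ly6d* the order was turned round in *Cdk1* Liv-/-, where whole liver was 0.71 times hepatocytes and the libraries overlapped. By spread over the 12 libraries *Ly6d* ranked 6th of the 17386 genes, with an SD of 3.21 on the log2 scale.

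**Figure D2:**
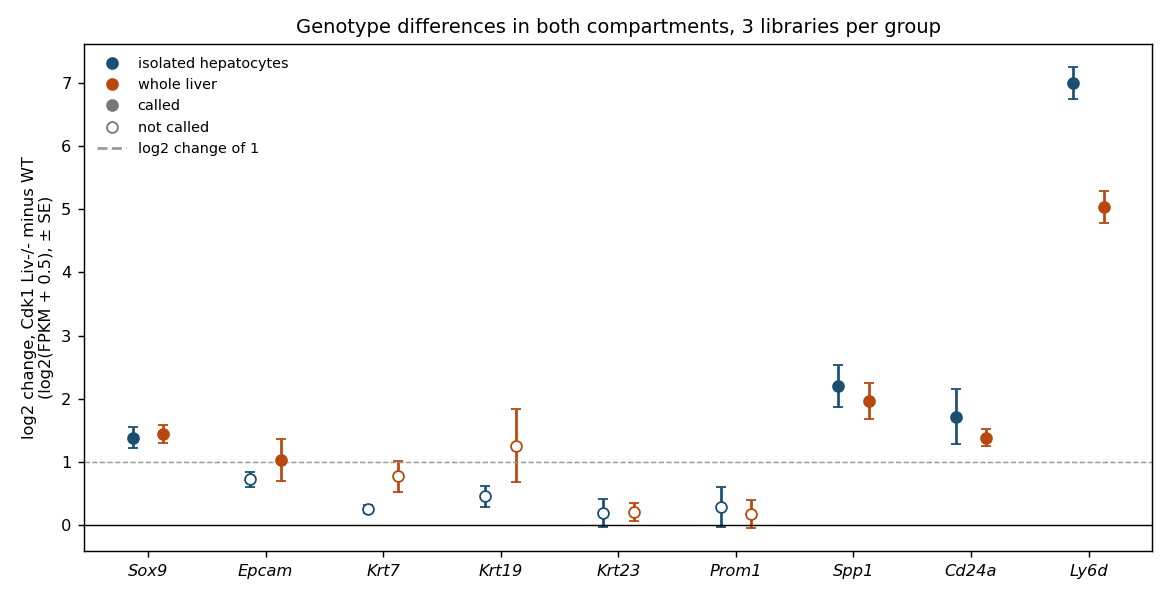
Log2 change of each of the 9 genes between *Cdk1* Liv-/- and WT, on the log2(FPKM + 0.5) scale with the SE from limma, in isolated hepatocytes and in whole liver, 3 libraries per group. Filled points were called and open points were not: *Sox9*, *Spp1*, *Cd24a* and *Ly6d* are filled in both compartments, *Epcam* in whole liver alone, and *Ly6d* stands at 6.998 in hepatocytes against 5.04 in whole liver.

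Genes of the other cells known for *Ly6d* were followed beside it. Of 12 stratified epithelium genes, 8 were listed at 0 in every library of each hepatocyte group, and for whole liver 7 in the WT libraries and 5 in the *Cdk1* Liv-/- ones. Their summed level was at most 0.43 FPKM in WT hepatocytes and at least 8.99 in *Cdk1* Liv-/- hepatocytes, and at most 0.55 against at least 12.4 in whole liver. Only *Sprr1a*, a cross-linked envelope protein of such epithelium, was abundant enough to be tested. *Sprr1a* rose from 0.167 ± 0.203 to 10.9 ± 2.67 FPKM in hepatocytes and from 0.277 ± 0.229 to 18.7 ± 8.92 in whole liver, so it made up most of the summed level in *Cdk1* Liv-/- mice (means of 10.94 and 18.99). The mean summed level of the list was 58.6 times the WT mean in hepatocytes, or 168 times without WT hepatocyte replicate 3, and 64.0 times in whole liver, or 112 times without WT whole liver replicate 3. The part of such cells in the *Ly6d* result was not tested. The 10 tested B cell genes had no member called higher in either compartment, where 4.20% (hepatocytes) and 4.59% (whole liver) of all tested genes were. In hepatocytes 2 of the 10 were called lower, against 2.17% of all tested genes, and leaving out WT replicate 2 gave 3 and leaving out any other library gave none. *Cd79b*, the most abundant of the 10 and a chain of the B cell receptor, fell by 1.26 on the log2 scale in hepatocytes.

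Genes of the *Ly6d* locus on chromosome 15, *Ly6* family members and the neighbouring gene *Them6*, had smaller log2 changes than *Ly6d*. Of a list of 20 symbols (*Ly6g6c*, untested, lies on chromosome 17 instead), 17 were in the table and 9, *Them6* among them, were tested, and 2 were called higher and 1 lower in *Cdk1* Liv-/- hepatocytes. There 4.20% of all tested genes were called higher and 2.17% lower. Without WT hepatocyte replicate 1 only 1 of the 9 was called higher, and without *Cdk1* Liv-/- hepatocyte replicate 3 none was called lower. In whole liver 2 of the 9 were called higher, where 4.59% of all tested genes were, and none lower. *Ly6e*, a widely expressed member, rose from 136 ± 24.0 to 479 ± 88.3 FPKM in hepatocytes and from 209 ± 21 to 525 ± 89.8 in whole liver, so it was more abundant than *Ly6d* in all 4 groups. *Gpihbp1*, which anchors lipoprotein lipase on capillary endothelium, fell from 34.0 ± 20.2 to 7.11 ± 2.65 in hepatocytes and was 30.1 ± 6.14 against 29.8 ± 10.5 in whole liver. The median log2 change of the 9 tested was 0.56 in hepatocytes and 0.65 in whole liver.

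The genes whose profile over the 12 libraries lay nearest that of *Ly6d* were *Lcn2*, *Orm2* and *Saa2*, by the root mean square difference of centred log2 values among 12274 genes with a mean of at least 1 FPKM. *Lcn2*, the nearest, differed by 0.50 and went from a mean of 9.26 to 657 FPKM in hepatocytes and from 13.5 to 520 in whole liver. *Spp1* lay nearest *Ddr1*, at 0.36, with *Glipr2* and *Ltb* next. *Cd24a* lay nearest *Tagln2*, at 0.34, followed by *Anxa5* and *Ddr1*, and *Krt19* lay nearest *Tap1*, at 0.47, followed by *Ltbp2* and *Gbp2*. Profiles were compared for these 4 genes, whose SD was at least 1. The comparison is over libraries that share group differences and gives no p.

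The levels of the 9 genes were then set against the compartment. In WT mice, *Epcam*, *Krt19* and *Ly6d* were called higher in whole liver than in isolated hepatocytes, 3 of 9 against 0.426% of all tested genes called higher and 0.466% in either direction. The means were 4.30-fold apart for *Epcam* (log2 1.17, SE 0.14, adjusted p = 0.0591), 5.51-fold for *Krt19* (1.33, SE 0.20, adjusted p = 0.084) and 3.49-fold for *Ly6d* (1.43, SE 0.25, adjusted p = 0.0891). For 7 of the 9, all but *Krt23* and *Prom1*, every whole liver library was above every hepatocyte library, which held for 20.7% of all tested genes. Without WT hepatocyte replicate 1 or 2, or WT whole liver replicate 1 or 2, none of the 3 was called. Without WT whole liver replicate 3 *Ly6d* alone was lost (adjusted p = 0.199), and without WT hepatocyte replicate 3 all 3 stayed and *Spp1* and *Cd24a* were added. The number of all tested genes called moved as well, from 81 with all libraries to between 1 and 34 without any of the other 5 libraries and to 527 without WT hepatocyte replicate 3. With all libraries, 1 of the 3 was left with a pseudocount of 1, without a filter, with median-ratio scaling or in a two-sample test, and none at an adjusted p of 0.05 or with a replicate block. Of the 3, *Ly6d* alone was lost with a pseudocount of 0.1, with the same sum in every library or without the limma trend. *Krt19* alone was lost in a fit over all 12 libraries. The median log2 difference over all tested genes was 0.10 here and 0.19 in *Cdk1* Liv-/- mice, and median-ratio scaling of the libraries brought these to 0.00 and -0.02. *Krt7* had the widest ratio, 16.4 between the means, yet a log2 difference of 0.82 (SE 0.13, adjusted p = 0.085), under the fold threshold.

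In *Cdk1* Liv-/- mice, *Krt19*, *Epcam*, *Krt7* and *Spp1* were called higher in whole liver than in hepatocytes, 4 of 9 against 9.46% of all tested genes called higher and 11.0% in either direction. The log2 differences were 2.14 for *Krt19* (SE 0.55, adjusted p = 0.0281), 1.48 for *Epcam* (SE 0.32, adjusted p = 0.0162), 1.34 for *Krt7* (SE 0.22, adjusted p = 0.00648) and 1.16 for *Spp1* (SE 0.33, adjusted p = 0.04). The *Spp1* call was lost with median-ratio scaling (0.88), without *Cdk1* Liv-/- whole liver replicate 1 (adjusted p = 0.116) or 3 (0.123) and without *Cdk1* Liv-/- hepatocyte replicate 1 (log2 0.90), and that of *Krt7* with a pseudocount of 1 FPKM (log2 0.895). For 5 of the 9, these and *Cd24a*, the compartments did not overlap with whole liver above, as for 40.3% of all tested genes. *Sox9* differed by 0.49 (SE 0.18, adjusted p = 0.0776) and its compartments met at 3.18 FPKM. *Ly6d* differed by -0.53 (SE 0.27, adjusted p = 0.177) and *Prom1* by -0.15 (SE 0.34, adjusted p = 0.757). By the ratio of means, whole liver over hepatocytes, *Krt7*, *Krt19* and *Epcam* were at 4.16 or more in both genotypes, and *Sox9*, *Krt23* and *Prom1* were within 1.62-fold in both. *Spp1* (2.56 in WT and 2.25 in *Cdk1* Liv-/-) and *Cd24a* (2.27, or 4.14 without WT hepatocyte replicate 3, and 1.96) lay between these, and *Ly6d* went from 3.49 to 0.71.

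**Figure D3:**
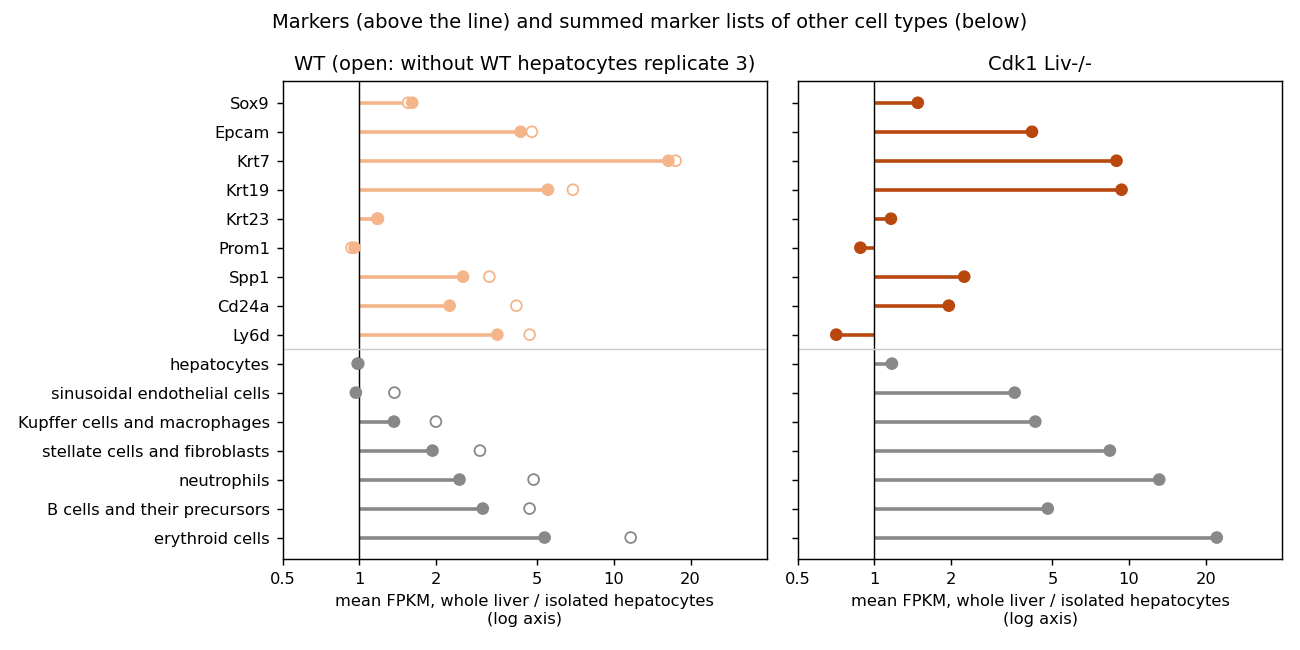
Ratio of the mean FPKM in whole liver to that in isolated hepatocytes, on a log axis, for the 9 genes and for the summed level of marker lists of other cell types, in WT (left) and *Cdk1* Liv-/- (right). *Epcam* keeps a ratio of 4.30 and 4.16 in the 2 genotypes, while the endothelial list goes from 0.97 to 3.55 and the stellate cell list from 1.94 to 8.40, the WT values being 1.38 and 2.98 without WT hepatocyte replicate 3 (open points).

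Markers of other cells also differed between the compartments, by different amounts in the 2 genotypes. In WT mice the summed level in whole liver was 0.97 times that in hepatocytes for sinusoidal endothelial genes, 1.37 times for Kupffer cell genes and 1.94 times for stellate cell genes. Without WT hepatocyte replicate 3 these were 1.38, 2.00 and 2.98, so that the endothelial ratio turned to above 1, as it also did without WT whole liver replicate 1, at 1.05. In *Cdk1* Liv-/- mice the same ratios were 3.55, 4.28 and 8.40. Against this, the ratio of *Epcam* was 4.30 in WT and 4.16 in *Cdk1* Liv-/-, that of *Sox9* 1.62 and 1.48, and that of *Krt19* 5.51 and 9.34, the last being 4.88 without *Cdk1* Liv-/- whole liver replicate 1. Without WT hepatocyte replicate 3 the WT ratios were 4.76 for *Epcam*, 1.56 for *Sox9* and 6.91 for *Krt19*. The summed levels in *Cdk1* Liv-/- hepatocytes were 0.31 times those in WT hepatocytes for endothelial, 0.43 times for Kupffer and 0.47 times for stellate cell genes, and without WT hepatocyte replicate 3 they were 0.45, 0.63 and 0.73 times. The endothelial sums did not overlap between the genotypes, whereas the Kupffer sums (150.1 to 229.4 FPKM in *Cdk1* Liv-/- and 204.6 to 691.9 in WT) and the stellate sums (110.3 to 129.0 and 126.6 to 440.6) did. The part of these cells in the compartment differences was not tested.

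Of 30 other cholangiocyte genes, 25 were tested, and 10 were called higher in *Cdk1* Liv-/- hepatocytes and 10 in *Cdk1* Liv-/- whole liver, with 1 called lower in hepatocytes. Of all tested genes, 4.20% were called higher and 2.17% lower in hepatocytes, and 4.59% higher in whole liver. The keratin genes *Krt8* and *Krt18* are 2 of the 10 in each compartment. *Clu*, the secreted chaperone clusterin and the most abundant of them, rose from 386 ± 30.1 to 1929 ± 275 FPKM in hepatocytes and from 441 ± 26.3 to 2265 ± 150 in whole liver. The tight junction gene *Cldn7* rose from 0.297 ± 0.119 to 3.70 ± 2.29 in hepatocytes and from 1.07 ± 0.248 to 9.76 ± 3.33 in whole liver, and its relative *Cldn4* from 0.0267 ± 0.0115 to 0.697 ± 0.131 and from 0.170 ± 0.060 to 3.83 ± 1.13. The water channel *Aqp1*, which endothelium also holds, was the gene that fell, from 39.7 ± 20.2 to 12.1 ± 3.44 FPKM in hepatocytes, a call lost without WT hepatocyte replicate 1 or *Cdk1* Liv-/- hepatocyte replicate 2 or 3. The median log2 change of the 25 was 0.86 in hepatocytes and 0.64 in whole liver. Between the WT compartments none of the 25 was called, where 0.466% of all tested genes were called in either direction. *Clu* was about as high in WT hepatocytes as in WT whole liver (log2 difference 0.19, adjusted p = 0.266 by limma), so this list is not particular to cholangiocytes here.

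Among other keratins, *Krt8* and *Krt18*, already counted above, which form the keratin pair of hepatocytes and cholangiocytes alike, rose in both compartments with *Krt20*. *Krt8* went from 91.8 ± 3.06 to 254 ± 62.7 FPKM in hepatocytes and from 97.4 ± 6.42 to 362 ± 22.3 in whole liver. *Krt18* went from 69.7 ± 8.38 to 162 ± 32.5 and from 81.8 ± 3.36 to 320 ± 52.6. Unlike *Krt7* and *Krt19*, these were close between the compartments in WT mice. *Krt20* went from 2.87 ± 0.580 to 17.4 ± 7.08 and from 2.53 ± 0.524 to 13.9 ± 2.84. Of all 48 keratins listed beside the 9 genes, 7 were tested, and 35 were at 0 in every WT hepatocyte library.

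Of 15 tested genes of fetal hepatoblasts and oval cells, 6 were called higher in whole liver and 2 in hepatocytes, against 4.59% and 4.20% of all tested genes, and 2 passed the test of a difference between the compartments, against 9.85%. In hepatocytes 5 of the 15 had a log2 difference below 0, none of them called. The most abundant of the list, the long non-coding RNA *H19* and the growth factor gene *Igf2*, chosen after their values were seen, were not called in either compartment: *H19* was 4041 ± 634 FPKM in WT and 3144 ± 1182 in *Cdk1* Liv-/- hepatocytes (log2 -0.41, adjusted p = 0.386), and *Igf2* was 529 ± 136 and 425 ± 179 (-0.36, adjusted p = 0.499). With these genes in it, the summed level of the list in *Cdk1* Liv-/- was 0.82 times that in WT in hepatocytes and 1.41 times in whole liver, and the genotypes overlapped in both. *Tnfrsf12a*, the receptor of the cytokine TWEAK, which acts on progenitor cells, rose from 6.59 ± 0.808 to 30.7 ± 8.02 FPKM in hepatocytes and from 6.41 ± 1.58 to 61.4 ± 16.8 in whole liver, changes whose difference had an adjusted p of 0.103. *Afp*, the fetal albumin relative, rose from 89.0 ± 18.7 to 559 ± 243 in whole liver, and in hepatocytes was 72.7 ± 37.5 against 150 ± 90.0 (adjusted p = 0.231), and the difference of its changes had an adjusted p of 0.183. *Gpc3*, a surface proteoglycan of fetal hepatocytes, rose from 28.2 ± 2.79 to 74.5 ± 22.6 in hepatocytes and from 32.9 ± 5.87 to 68.6 ± 17.0 in whole liver.

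Genes of pathways known to act on the duct program were followed next. Notch is the pathway that steers hepatoblasts to the ductal fate. Of 20 Notch pathway genes, none was called higher in hepatocytes, where 4.20% of all tested genes were. In hepatocytes 2 were called lower, *Heyl* and *Notch4*, against 2.17% of all tested genes. In whole liver *Dlk1* alone was called, higher, where 4.59% of all tested genes were called higher. *Dlk1* was also counted in the list of fetal hepatoblast and oval cell genes above. Without WT hepatocyte replicate 2, 5 of the 20 Notch pathway genes were called lower in hepatocytes, and without each of the other 5 libraries 1 was, while 1 was called higher without *Cdk1* Liv-/- hepatocyte replicate 1. In whole liver 2 were called higher without WT replicate 1 or *Cdk1* Liv-/- replicate 3. The log2 changes of *Heyl* and *Notch4* were -1.60 and -1.22 in hepatocytes and -0.13 and 0.56 in whole liver. In the hepatocyte comparison the endothelial and stellate cell sums were 0.31 and 0.47 times those in WT, or 0.45 and 0.73 times without WT hepatocyte replicate 3. The part of such cells in these falls was not tested. Of 14 genes of the growth-controlling coactivator YAP and its TEAD partners, *Cyr61*, a secreted matrix protein, was called higher in hepatocytes, and 3 were called higher in whole liver, against 4.20% and 4.59% of all tested genes. Without *Cdk1* Liv-/- hepatocyte replicate 1, 2 were called higher in hepatocytes. *Cyr61* rose from 3.02 ± 0.686 to 12.9 ± 5.86 FPKM in hepatocytes and from 3.51 ± 0.380 to 15.3 ± 6.28 in whole liver. *Ankrd1*, a nuclear ankyrin repeat protein, rose by 1.73 on the log2 scale in whole liver.

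**Figure D4:**
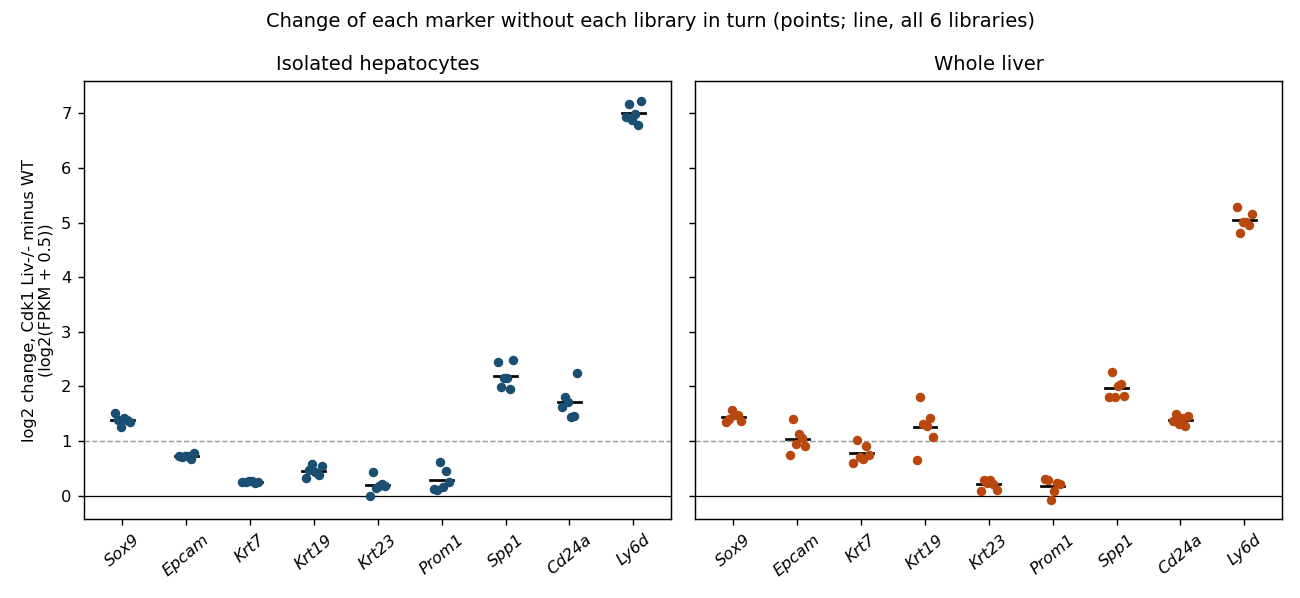
Log2 change of each of the 9 genes between *Cdk1* Liv-/- and WT with each of the 6 libraries of a comparison left out in turn (points) beside the value from all 6 (line), in isolated hepatocytes (left) and whole liver (right); the dashed line is a log2 change of 1. *Ly6d* keeps to 6.78 to 7.23 in hepatocytes and 4.80 to 5.29 in whole liver, whereas *Krt19* in whole liver goes from 0.66 to 1.80.

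With each library left out in turn, *Sox9*, *Spp1* and *Ly6d* stayed called in both compartments. *Sox9* kept between 1.26 and 1.51 in hepatocytes and between 1.35 and 1.56 in whole liver, and *Spp1* between 1.95 and 2.48 and between 1.81 and 2.27. The number of the 9 called lay between 3 and 4 in hepatocytes and between 4 and 7 in whole liver, where 7 were called without *Cdk1* Liv-/- replicate 2 as *Krt7* and *Krt19* joined. Without the library with high *Xist*, 4 were called in whole liver, *Epcam* being lost.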

How the data were processed

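Polyadenylated RNA was sequenced as single reads of 75 bases from stranded libraries. The deposited values are FPKM, which the authors made with STAR and RSEM 1.2.31 on mm10, per the submitters' processing notes; which annotation release was used is not stated. The authors describe no further scaling between libraries. A total read count per library is not part of FPKM. Steps of low values in genes with 1 transcript of 300 to 900 bases put 1 FPKM over 1 kilobase at 34.7 to 50.0 reads; at these steps 32.2% to 41.8% of values lay within 0.05 of whole reads, so reads were used as estimates only.

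Genes were tested on log2(FPKM + 0.5) with limma 3.58.1 in R 4.3.3 (trend, two-sided, Benjamini-Hochberg) after a filter at a mean of 0.1 FPKM, and the difference between compartments as an interaction over all 12 libraries. A pseudocount understates fold changes of low genes. Code was tested on simulated data. At an adjusted p of at most 0.1, 63% to 64% of simulated log2 changes of 1 were recovered. Of the calls, 8.77% were false in hepatocytes, 10.6% in whole liver and 14.4% in the test of a difference between compartments. No 2 libraries held identical values. Gene positions come from GENCODE M21. The 9 genes, 15 further gene lists and thresholds were chosen with earlier results of these data known. Genes outside the 9 were named by rule: of each list, up to 4 called genes of either genotype comparison (the 2 at the top and the 2 at the bottom by size of change), the 3 most abundant of a marker list of another cell type, and the 3 nearest profiles. Alternatives were other pseudocounts (0.1 and 1), filters, scalings, fits, thresholds and left-out libraries. Ratios of means without a library were added after seeing the data.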

Additional observations from a re-analysis of the deposited data

Results flagged for a closer look

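*Ly6d* stood out because its genotype change differed between the compartments by a test of the difference itself: the log2 change was larger in isolated hepatocytes than in whole liver by 1.96 (SE 0.38, adjusted p = 0.0406 by limma over all 12 libraries). Its levels were higher in *Cdk1* Liv-/- in every library of both compartments. Over 22 alternatives the difference lay between 1.69 and 2.31 and its adjusted p between 0.0226 and 0.110, the last without WT whole liver replicate 1. Lists of other cell types also moved between the compartments, and their part was not tested.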

How the results depend on the processing

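*Sox9*, *Spp1* and *Ly6d* in both compartments and *Cd24a* in whole liver kept their direction and call under each of 18 alternatives. The number of the 9 called lay between 3 and 6 in hepatocytes and between 4 and 6 in whole liver over 12 settings that keep all libraries, and between 3 and 5 with a library left out for the *Cdk1* Liv-/- compartments. For the difference of the genotype effects the number past the threshold lay between 0 and 2 with a library left out, and was 2 (*Ly6d* and *Cd24a*) without WT hepatocyte replicate 3, alone or together with *Cdk1* Liv-/- whole liver replicate 3, the pair chosen after seeing the data. For the WT compartments the 3 calls became 1 with a pseudocount of 1, without a filter, with median-ratio scaling or with a two-sample test, 0 at an adjusted p of 0.05 and 0 with a replicate block, and lay between 0 and 5 with a library left out. *Ly6d* lost this call with a pseudocount of 0.1 (adjusted p = 0.107), where *Krt7* gained one, with the same sum in every library (0.110) and without the limma trend (0.102). *Krt19* lost it in a fit over all 12 libraries (0.171), where *Spp1* gained one. *Cd24a* in hepatocytes lost its call without a filter (adjusted p = 0.147), with the block (0.103) and at 0.05, and *Epcam* in whole liver with a pseudocount of 1 (log2 0.87), without a filter (adjusted p = 0.135), with median-ratio scaling (log2 0.84) and at 0.05. *Krt19* in whole liver gained a call in a fit over all 12 libraries (adjusted p = 0.0612) and in the two-sample test (0.0897).

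Values near 0 changed sign. With median-ratio scaling, which moved the median of all genes in whole liver from 0.18 to 0.01, *Krt23* was -0.011 and *Prom1* -0.041 in whole liver, *Krt23* was -0.024 between the *Cdk1* Liv-/- compartments, and the difference of the genotype effects was 0.11 for *Sox9* and 0.13 for *Krt23*; with a pseudocount of 0.1 it was 0.062 for *Sox9*. With a library left out, signs turned for *Krt23* in hepatocytes (-0.0029 to 0.43), *Prom1* in whole liver (-0.073 to 0.31), the difference of genotype effects of *Sox9* (-0.18 to 0.072), *Krt23* (-0.21 to 0.23), *Prom1* (-0.070 to 0.45) and *Spp1* (-0.076 to 0.52, and 0.67 without the pair of libraries named above), and the compartment differences of *Prom1* (WT, -0.18 to 0.12; *Cdk1* Liv-/-, -0.49 to 0.026) and *Krt23* (*Cdk1* Liv-/-, -0.0011 to 0.43). The cause was not tested. Deviations of libraries with the same replicate number correlated between -0.32 and 0.24, so the numbers were not taken as pairs. The difference of genotype effects was not run as a two-sample test, and *Krt7*, with a mean of 0.43 FPKM, has no value under a filter of 1 FPKM. Depth limits *Krt7* in WT hepatocytes most.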
